A study of Caenorhabditis elegans with 7 samples.

Results

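Small heat shock proteins were followed at the transcript level through 10 of their genes in early embryos of the nematode Caenorhabditis elegans: sip-1, hsp-12.1, hsp-12.2, hsp-12.3, hsp-12.6, hsp-16.2, hsp-16.41, hsp-17, hsp-25 and hsp-43. The genes were taken by symbol from a table of raw read counts for 46748 genes, and all 10 were found. Whole early embryos from flp-21(ok889) mutants gave 4 RNA sequencing libraries, numbered 11, 22, 29 and 30. Embryos of the wildtype, whose sample titles carry the strain name N2, gave 3, numbered 11, 22 and 30. The mutant carries the ok889 allele of flp-21, which encodes a FMRFamide-like neuropeptide, and no treatment is labelled in either group. The design text places the embryos before gastrulation, and the labels say that they were taken from mothers holding 1-2 eggs. Whether the libraries stem from separate cultures is not labelled, and all p-values rest on the spread between them, which may be technical.

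Small heat shock proteins share a central alpha-crystallin domain, assemble into oligomers and bind unfolding proteins without using ATP, holding them until chaperones of the Hsp70 class refold them. In the worm they fall into groups that differ in when they are made. The hsp-16 genes are nearly silent until heat or another stress activates the heat shock factor HSF-1. Others, such as the hsp-12 genes, hsp-25 and hsp-43, are made without heat, several of them in particular tissues, and sip-1 is known as the family member of oocytes and embryos. No sequences of these genes were used here.

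Total counts ran from 34164612 to 53620276 in the mutant libraries and from 34262203 to 42988763 in the wildtype libraries, so that 1 count was worth 0.0186 to 0.0293 CPM (counts scaled to a common library total). The mutated gene flp-21 had 2, 1, 5 and 9 counts in mutant libraries 11, 22, 29 and 30, against 24, 2 and 6 counts in wildtype libraries 11, 22 and 30, too few to check the genotype labels. Libraries of a group differed by more than sampling noise in every pair, least between mutant libraries 22 and 29 (chi-square divided by its degrees of freedom 24.5). CPM below are scaled by the TMM method, which sets the bulk of genes level between libraries, and are given in the order of the library numbers. Under this scaling the 13035 genes that could be tested had a median log2 fold change of -0.21, against which small changes are to be read. In bulk embryos, fewer cells of a type and less RNA per cell cannot be told apart.

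The genes lie on 5 chromosomes of build WBcel235 and are short, with 364 to 1385 bases of counted exon. The genes hsp-16.2 (chromosome V from 1804334 to 1804971, minus strand) and hsp-16.41 (1805233 to 1805875, plus strand) are divergent neighbours with 261 bases between them. The genes hsp-12.3 and hsp-12.6 are neighbours on the minus strand of chromosome IV, 1060 bases apart. In hsp-25 (chromosome X from 6034092 to 6039496) 419 of 1350 exonic bases are shared with ipp-5 on the opposite strand, and in hsp-17 (chromosome V from 8384774 to 8385927) 94 of 583 bases are shared with F52E1.14. Counting gave no option for strand, so a read over shared bases fits both partners. Such reads were not credited to both: F43D9.8 shares 123 bases with sip-1 but had 0 counts, beside at least 128815 for sip-1. Whether such reads went to a single partner or were left uncounted was not tested. The count of hsp-12.6 covers 364 exonic bases, against 769 in the Ensembl annotation, so reads of its other bases were not counted.

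The embryo gene sip-1 (WBGene00004798, chromosome III from 10506106 to 10506801) stood apart from the rest of the family in every library. It took 186365, 213497, 254846 and 329679 counts in the mutant libraries, against 164531, 128815 and 394913 counts in the wildtype libraries. Ranked by counts per base of exon among all 46748 genes, it held rank 2, 2, 2 and 3 in mutant libraries 11, 22, 29 and 30 and rank 3, 4 and 2 in wildtype libraries 11, 22 and 30. Of its 640 exonic bases, 123 are shared with the gene model F43D9.8, which had 0 counts in all 7 libraries. Reads over the shared bases were not credited to F43D9.8, so these counts set no limit on its level. Reads of sip-1 over those bases may have gone uncounted.

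The level of sip-1 was 4538, 5770.4, 4604 and 6285 CPM in the mutant libraries, against 3661, 3779 and 14891 CPM in the wildtype libraries. All mutant libraries lay above wildtype libraries 11 and 22 and below wildtype library 30, so the groups overlapped. Its mean was 5299 ± 867 CPM (SD, n = 4) in mutant embryos and 7444 ± 6450.04 CPM (SD, n = 3) in wildtype, and its log2 fold change of -0.49 (SE 0.52) did not pass the test (edgeR quasi-likelihood, adjusted p = 0.498). Wildtype library 30 decided the direction. Without it the log2 fold change was 0.63 (SE 0.21, edgeR adjusted p = 0.0338), and with it as the lone wildtype library, assumed to vary as the mutant libraries do, it was -1.27 (SE 0.22, edgeR adjusted p = 0.0241). That library also held 13.3% of its counts in ribosomal RNA genes, with 2.40% to 3.72% held there in mutant embryos and 6.48% and 3.99% in wildtype libraries 11 and 22. Its TMM scaling raises its CPM, but in CPM of total counts without that scaling sip-1 was still highest there, at 10898, with 4912 to 6148 in mutant embryos and 3827 and 3759.7 in wildtype libraries 11 and 22. The part of these features in the result was not tested.

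**Figure D1:**
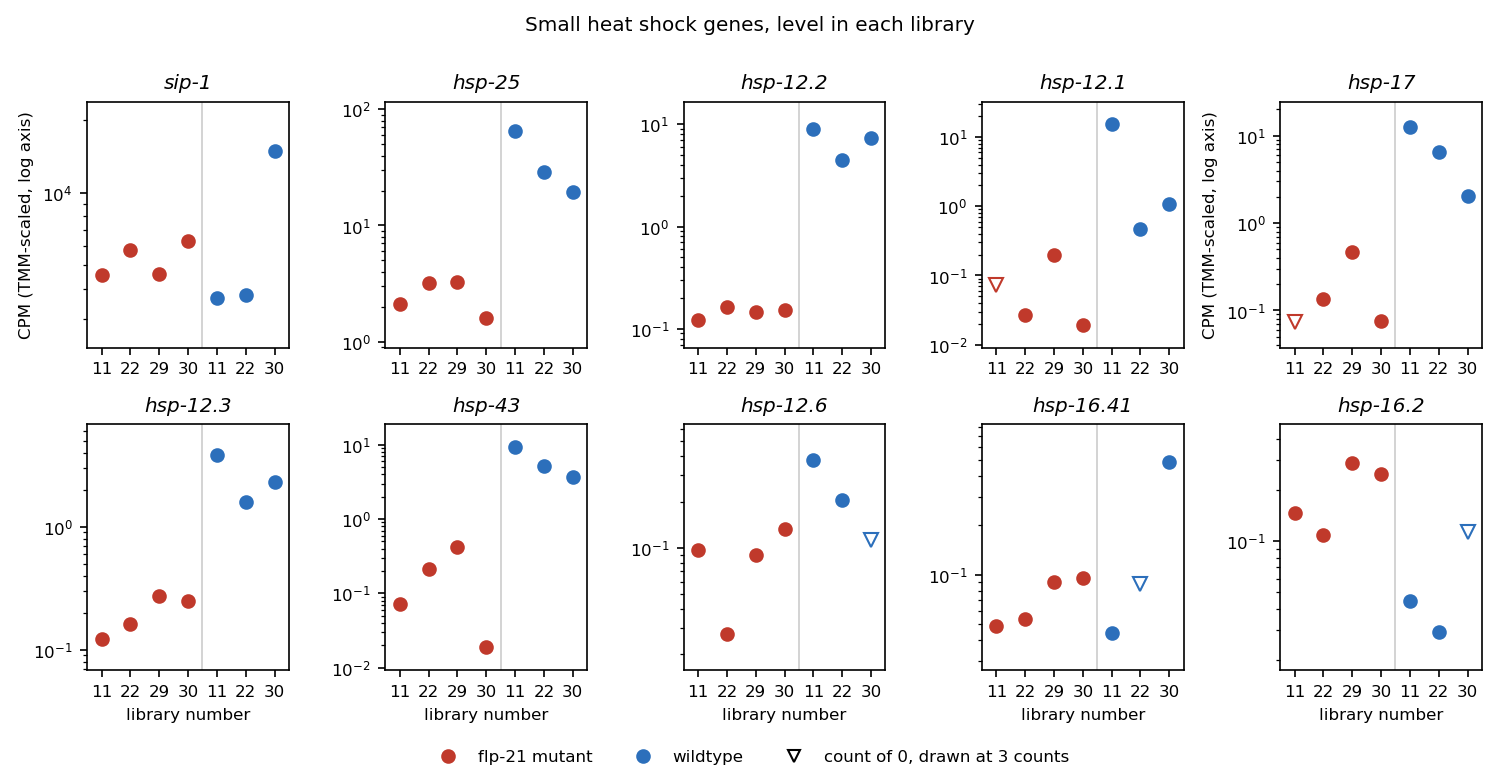
Level of each small heat shock gene in each library, in TMM-scaled CPM on log axes that differ between panels, with the 4 flp-21 mutant libraries left of the 3 wildtype libraries and counts of 0 drawn as open triangles at the level of 3 counts. In the panels of hsp-25, hsp-12.2, hsp-12.1, hsp-17, hsp-12.3 and hsp-43 every mutant library lies below every wildtype library, while sip-1 is highest in wildtype library 30 at 14891 CPM.

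Set beside sip-1, the other 9 genes were minor. Together they held 112, 150, 290 and 136 counts in the mutant libraries, against 5188, 1620 and 968 counts in the wildtype libraries. Their share of the family's counts was 0.0601% (95% Wilson interval 0.0499% to 0.0723%), 0.0702% (0.0598% to 0.0824%), 0.114% (0.101% to 0.128%) and 0.0412% (0.0349% to 0.0488%) in mutant libraries 11, 22, 29 and 30. It was 3.06% (2.98% to 3.14%), 1.24% (1.18% to 1.30%) and 0.245% (0.230% to 0.260%) in wildtype libraries 11, 22 and 30. Without molecular identifiers reads are not independent molecules, so these intervals and all limits below cover counting error alone. The summed level of the other 9 was 2.73, 4.05, 5.24 and 2.59 CPM in the mutant libraries, against 115.4, 47.5 and 36.5 CPM in the wildtype libraries, with no overlap. The gene hsp-25 gave most of these minor counts, at least 61.8% in every mutant library and 53.6% in every wildtype library.

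Levels of different genes can be compared only per length. The lengths include bases shared with opposite-strand genes, 419 of 1350 in hsp-25. Where reads over such bases went uncounted, levels per length are too low. As CPM per kb of counted exon, sip-1 reached 8280.3 ± 1355 in the mutant and 11631 ± 10078 in wildtype, and hsp-25, the next gene, 1.88 ± 0.602 in the mutant and 27.995 ± 17.6 in wildtype (SD, n = 4 and 3). The libraries of sip-1 and hsp-25 did not overlap in either group. In the mutant hsp-25 in turn lay above all 8 others without overlap, and below it hsp-12.3, hsp-16.2, hsp-17, hsp-12.2, hsp-12.6, hsp-12.1, hsp-43 and hsp-16.41 followed at means of 0.414 to 0.123, each overlapping its neighbour in the order. In wildtype the order after hsp-25 was hsp-12.2, hsp-12.1, hsp-17, hsp-12.3 and hsp-43, from 13.7 to 4.35, each overlapping its neighbour. A gap without overlap then separated hsp-43 from hsp-12.6, hsp-16.41 and hsp-16.2, whose means were 0.534, 0.305 and 0.0416. The gene hsp-16.2 was thus last in wildtype but not in the mutant. With TPM in place of CPM per kb, the means of sip-1 were 12449 in the mutant and 11390.2 in wildtype, so the order of the groups for this gene turned with the scaling.

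**Figure D2:**
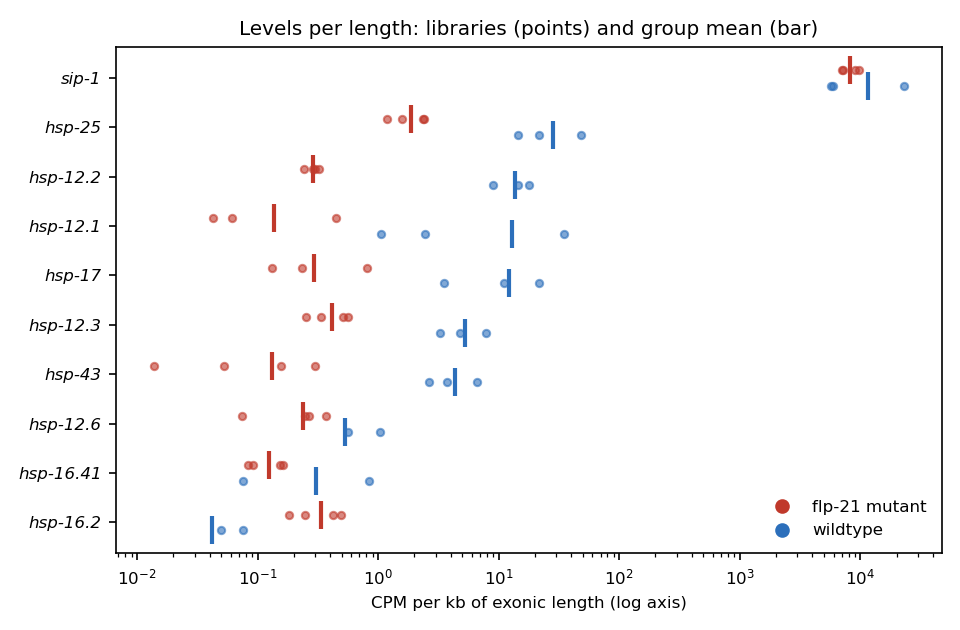
Levels of the 10 genes per kb of counted exon on a log axis, with libraries as points, group means as bars, the flp-21 mutant above wildtype in each row, and libraries with a count of 0 not drawn. The mean of sip-1 is 8280.3 CPM per kb in the mutant and 11631 in wildtype, and those of all other genes are at or below 1.88 in the mutant and 27.995 in wildtype.

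The hsp-12 genes encode the smallest proteins of the family, little more than the alpha-crystallin domain. The gene hsp-12.2 (WBGene00002011, chromosome III from 8138090 to 8139631) had 0.122, 0.162, 0.145 and 0.153 CPM in the mutant libraries, against 8.99, 4.52 and 7.32 CPM in the wildtype libraries. The groups did not overlap, and the mutant libraries differed among themselves by less than the wildtype libraries did. The mutant levels rest on only 5, 6, 8 and 8 counts, where counting error is large, so their true spread is not known. It fell by 5.55 on the log2 scale, 46.9-fold (SE of log2 0.58, edgeR adjusted p = 2.11e-04), the smallest p-value of the family, and it remained called in all 16 alternatives that tested it, with log2 fold changes from -5.76 to -5.18. The overlap of 21 exonic bases with C14B9.8 on the other strand touched little of the gene, and C14B9.8 did not pass (log2 fold change 0.32, edgeR adjusted p = 0.565).

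The gene hsp-12.3 (WBGene00002012, chromosome IV from 9444788 to 9445324), whose purified protein was found to lack chaperone activity, had 0.122, 0.162, 0.271 and 0.248 CPM in the mutant libraries, against 3.83, 1.58 and 2.30 CPM in the wildtype libraries. It fell 12.5-fold (log2 fold change -3.65, SE 0.62, edgeR adjusted p = 0.00171), again with no overlap between the groups. Its neighbour hsp-12.6 (WBGene00002013, from 9446385 to 9446980), which is known to be raised by the transcription factor DAF-16 when insulin signalling is low, had 4, 1, 5 and 7 counts in the mutant libraries, against 17, 7 and 0 counts in the wildtype libraries. The groups of hsp-12.6 overlapped, and it stayed under the count filter. Its 17 counts in the mutant and 24 in wildtype gave a ratio of 0.459 relative to total counts, with a 95% exact interval of 0.231 to 0.890 that covers counting error only. Across libraries the difference did not pass (two-sided exact permutation test over 35 splits, p = 0.4, the smallest possible p being 0.0286).

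The gene hsp-12.1 (WBGene00011906, chromosome I from 10581588 to 10582611) varied widely within wildtype. It had 0, 1, 11 and 1 counts in the mutant libraries, against 699, 16 and 29 counts in the wildtype libraries, and the 0 allows up to 3 counts, or 0.0731 CPM. As levels these were 0, 0.0270, 0.199 and 0.0191 CPM in the mutant, against 15.6, 0.469 and 1.09 CPM in wildtype, where library 11 was 33.1-fold above library 22. The groups did not overlap. The gene fell (log2 fold change -6.40, SE 1.47, edgeR adjusted p = 0.00726), but the size rests on single libraries, being -3.42 with the call lost without wildtype library 11 (edgeR adjusted p = 0.0526) and -8.28 without mutant library 29. With wildtype library 30 as the lone wildtype library it was -3.83, with the call lost as well (edgeR adjusted p = 0.0840). DESeq2 gave it no adjusted p.

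Among the larger members, hsp-25 (WBGene00002023, chromosome X), whose protein is known from the dense bodies and M-lines of body wall muscle, had 2.12, 3.16, 3.27 and 1.601 CPM in the mutant libraries, against 64.7, 29.1 and 19.6 CPM in the wildtype libraries. It fell 14.9-fold (log2 fold change -3.90, SE 0.54, edgeR adjusted p = 6.72e-04) with no overlap. Without wildtype library 11 its log2 fold change was -3.16, and with wildtype library 30 as the lone wildtype library -2.73, still called in both (edgeR adjusted p = 0.00456 and 0.0237). The opposite-strand gene ipp-5 moved the same way, at 0.154 ± 0.115 CPM in mutant embryos and 3.44 ± 2.58 CPM in wildtype (log2 fold change -4.47, edgeR adjusted p = 0.0042). Its call was lost with wildtype library 30 as the lone wildtype library (log2 fold change -2.02, edgeR adjusted p = 0.183), and its part in the counts of hsp-25 was not tested.

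The other long member of the X chromosome, hsp-43 (WBGene00002024, from 6233149 to 6235541), had 0.0731, 0.216, 0.416 and 0.0191 CPM in the mutant libraries, against 9.23, 5.13 and 3.70 CPM in the wildtype libraries. It fell 32.5-fold (log2 fold change -5.02, SE 0.91, edgeR adjusted p = 0.00226), with a log2 fold change of -5.88 without mutant library 29. The highest and lowest mutant libraries of hsp-43 stood 21.8-fold apart, on counts of 23 and 1.

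The gene hsp-17 (WBGene00002021), whose protein was reported to gather its client proteins into aggregates, had 0, 5, 26 and 4 counts in the mutant libraries, against 570, 220 and 54 counts in the wildtype libraries. In CPM these were 0, 0.135, 0.470 and 0.0763 in the mutant, against 12.7, 6.45 and 2.04 in wildtype. It fell 39.9-fold (log2 fold change -5.32, SE 1.12, edgeR adjusted p = 0.00471), with no overlap, and the log2 fold change was -6.60 without mutant library 29 and -4.56 without wildtype library 11. With wildtype library 30 as the lone wildtype library the call was lost (log2 fold change -3.34, edgeR adjusted p = 0.105). F52E1.14 on the opposite strand was also lower, at 0.131 ± 0.156 CPM in mutant embryos and 12.7 ± 5.09 CPM in wildtype (log2 fold change -6.57, edgeR adjusted p = 0.00237).

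The heat-inducible pair hsp-16.2 and hsp-16.41 was near the limit of detection in both groups and stayed under the count filter. The gene hsp-16.2 (WBGene00002016), widely used as a reporter of the heat shock response, had 6, 4, 16 and 13 counts in the mutant libraries, against 2, 1 and 0 counts in the wildtype libraries. Every mutant library thus lay above every wildtype library, as for 9.16% of the 21630 genes with at least 1 count. The 39 counts in the mutant and 3 in wildtype gave a ratio of 8.42 relative to total counts, with a 95% exact interval of 2.68 to 42.6 for counting error only. The exact permutation test over libraries gave p = 0.0571 (two-sided), and without the count filter the edgeR adjusted p was 0.134, so the difference did not pass.

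Its divergent neighbour hsp-16.41 (WBGene00002018) had 2, 2, 5 and 5 counts in the mutant libraries, against 2, 0 and 13 counts in the wildtype libraries. The groups overlapped, and the highest library was wildtype library 30, in which hsp-16.2 had 0 counts. The ratio of hsp-16.41, from 14 counts in the mutant and 15 in wildtype, was 0.605 (95% exact interval 0.270 to 1.34, counting error only; two-sided exact permutation test, p = 0.857). The hsp-16 genes resemble each other in sequence, and reads shared by similar copies could not be assigned with certainty.

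In all, 6 of the 10 genes fell, 0 rose, sip-1 did not pass, and hsp-12.6, hsp-16.2 and hsp-16.41 were not tested. Of all 13035 tested genes 29.4% were called lower and 9.01% higher, and the groups did not overlap with the mutant lower for 30.5%, as for the same 6 genes here. The median log2 fold change of the 7 tested members was -5.02 and that of all tested genes -0.21. Neither the count nor the median is support by itself: hsp-12.1, hsp-12.2, hsp-12.3, hsp-17 and hsp-43 reached the filter level of 0.276 CPM in all 3 wildtype libraries but in at most 1 mutant library, and genes kept through their wildtype level alone had to be lower in the mutant. The genes hsp-25 and sip-1 reached it in all 7 libraries. In the authors' deposited table of genes past their thresholds, 5 of the 10 members were listed, with log2 fold changes of -5.51 for hsp-12.2, -5.37 for hsp-17, -5.03 for hsp-43, -3.88 for hsp-25 and -3.62 for hsp-12.3.

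**Figure D3:**
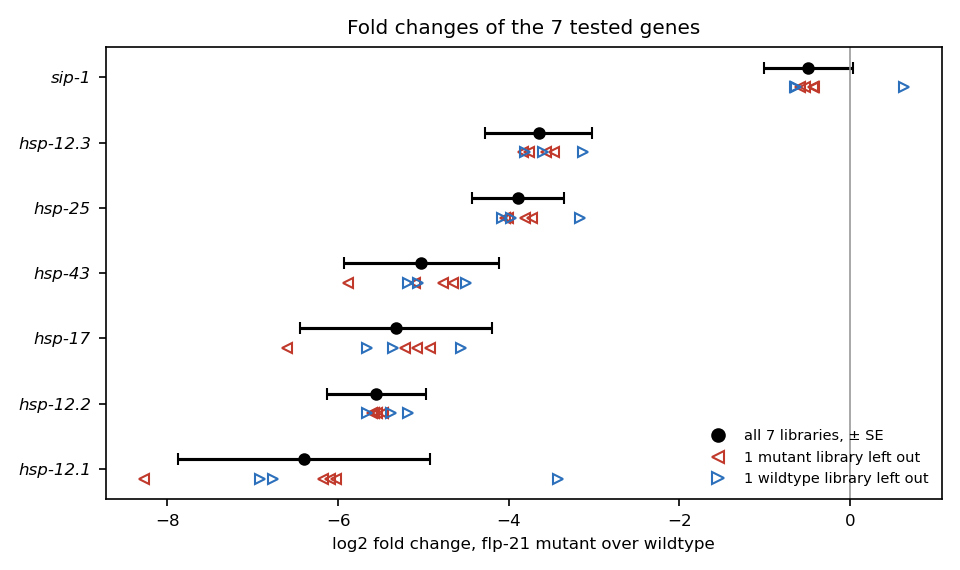
Log2 fold change of the 7 tested genes, flp-21 mutant over wildtype, with all 7 libraries (black, bars ± SE) and with 1 library left out (open triangles, mutant libraries pointing left and wildtype libraries pointing right). The other 6 genes lie at or below -3.13 in all of these, whereas sip-1 is at -0.49 and lies at 0.63 without wildtype library 30.

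**Figure D4:**
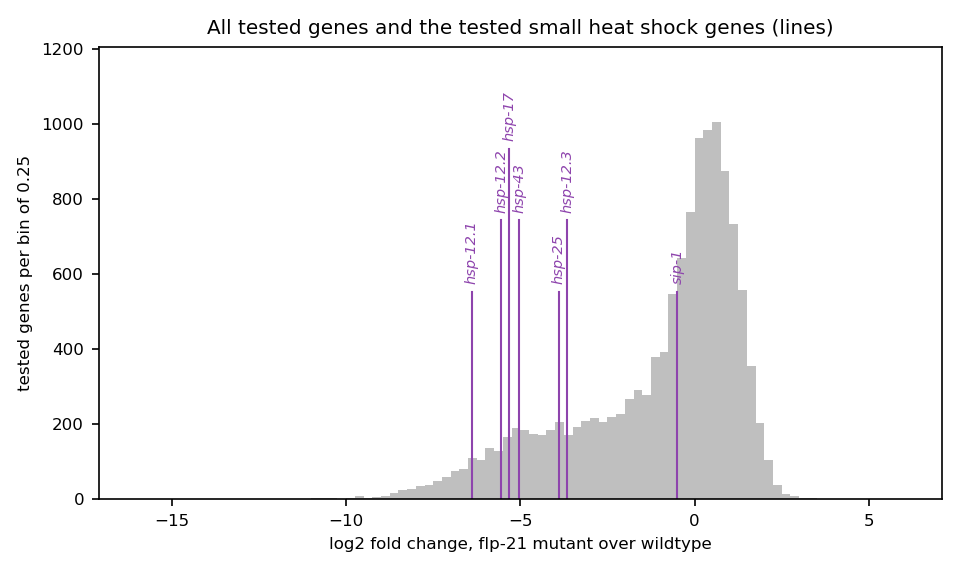
Number of tested genes by log2 fold change, flp-21 mutant over wildtype, in bins of 0.25, with the 7 tested small heat shock genes as lines. The lines of 6 genes lie between -6.40 and -3.65, in the long lower arm that many other tested genes share, and that of sip-1 lies at -0.49.

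No other alpha-crystallin gene that could be tested was called lower. Of 8 such genes counted, 5 were tested and 0 passed in either direction by edgeR (1 at an unadjusted p under 0.05). Of all 13035 tested genes 29.4% were called lower and 9.01% higher. Among the 5, 2 reached the filter level in at least 3 libraries through the mutant alone, so 0 lower is no support by itself. DESeq2 called Y55F3BR.6 higher (log2 fold change 0.97, adjusted p = 0.0258). Y55F3BR.6 had 42.0, 48.3, 47.9 and 29.1 CPM in the mutant libraries, against 21.4, 24.0 and 25.8 CPM in the wildtype libraries, with no overlap and a log2 fold change of 0.82 (SE 0.34, edgeR adjusted p = 0.0877). It passed in edgeR with library size alone and without mutant library 30 or wildtype library 30 (adjusted p = 0.0405, 0.0426 and 0.0415). The log2 fold changes of F08H9.3, F08H9.4, ZK1128.7 and hsp-16.11 were 1.34, 1.203, -0.60 and -1.23, with edgeR adjusted p-values of 0.340, 0.342, 0.438 and 0.370. The remaining hsp-16 copies were at the limit of detection. The gene hsp-16.1 had 1 to 10 counts per mutant library and 7 to 32 per wildtype library, ranges that overlapped as counts but not as CPM, and hsp-16.48 and hsp-16.49 had at most 6 counts in the mutant and 15 in wildtype.

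Of the regulators of the heat shock response, 10 were tested: 4 were called higher and 1 lower while 5 did not pass, with a median log2 fold change of 0.97. Over all tested genes 9.01% were called higher and 29.4% lower, with a median of -0.21. The heat shock transcription factor gene hsf-1 rose, at 209.5, 271, 268 and 153 CPM in the mutant libraries and 90.7, 103 and 80.4 CPM in the wildtype libraries (log2 fold change 1.30, SE 0.33, edgeR adjusted p = 0.0116), but its call was lost without mutant libraries 22 and 29 (edgeR adjusted p = 0.134). The insulin receptor gene daf-2 rose, with a log2 fold change of 2.77 (edgeR adjusted p = 0.00119). The zinc finger factor gene pqm-1, which works opposite to DAF-16, fell to 0.0417 ± 0.0298 CPM in the mutant, against 5.08 ± 3.495 CPM in wildtype (log2 fold change -6.90, edgeR adjusted p = 4.94e-04). This gene, the 1 regulator called lower, reached the filter level through wildtype alone, so its direction is no support by itself. The other rises were those of skn-1 and sir-2.1, and daf-16 itself did not pass (136 ± 43.6 CPM in mutant embryos and 95.02 ± 42.7 CPM in wildtype). The number of regulators that rose was 1 to 7 across the alternatives, 7 without wildtype library 30 and 2 without any one of mutant libraries 11, 22 and 29 or wildtype library 11. Without wildtype library 30, 2505 of all 14122 genes then tested rose.

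Among the 21 chaperones of other classes that could be tested, 5 were called lower and 2 higher while 14 did not pass, with a median log2 fold change of -0.10. These counts are near the shares over all tested genes, 29.4% lower and 9.01% higher, and are no result about chaperones as a group. The mitochondrial chaperonin gene hsp-60 fell to 26.4 ± 8.45 CPM in the mutant, against 436 ± 284 CPM in wildtype (log2 fold change -4.04, edgeR adjusted p = 5.32e-04). The log2 fold change of hsp-60 was -3.34 without wildtype library 22 and -2.58 with wildtype library 30 as the lone wildtype library, still called in both (edgeR adjusted p = 0.00259 and 0.0177). The constitutive Hsp70 gene hsp-1 averaged 739 ± 76.4 CPM in mutant embryos and 3823 ± 1773 CPM in wildtype embryos, and hsp-90 averaged 872 ± 240.3 CPM in mutant embryos and 4027 ± 1068 CPM in wildtype embryos (log2 fold changes -2.37 and -2.21, edgeR adjusted p = 0.00136 and 0.00145). With wildtype library 30 as the lone wildtype library the log2 fold change of hsp-1 was -1.40, still called (edgeR adjusted p = 0.0216). The call of hsp-90 was lost without mutant libraries 22 and 29 (edgeR adjusted p = 0.0564). Without wildtype library 30, 9 of the chaperones fell and 6 rose, where 4777 of all 14122 genes then tested fell and 2505 rose.

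Known targets of DAF-16 other than the small heat shock genes were lower for 8 of the 10 tested and higher for 0, with a median log2 fold change of -5.08, where 29.4% of all tested genes were lower, 9.01% higher and the median -0.21. Of the 8 that were lower, 5, among them lys-7 and lys-8, reached the filter level in at least 3 libraries through wildtype alone, so the count and the median are no support by themselves. The saposin-like gene spp-1 averaged 0.80003 ± 0.470 CPM in mutant embryos and 45.6 ± 7.93 CPM in wildtype, lys-8 0.577 ± 0.578 CPM in mutant embryos and 118 ± 56.3 CPM in wildtype, and lys-7, also a lysozyme gene, 0.0158 ± 0.0186 CPM in mutant embryos and 5.42 ± 3.98 CPM in wildtype (edgeR adjusted p = 1.85e-04, 6.81e-04 and 7.36e-04). Several of these targets are expressed in the adult intestine. With wildtype library 30 as the lone wildtype library fewer of the 10 targets were called lower, as were fewer of all tested genes.

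Transcripts that mark muscle, sperm, intestine, cuticle and pharynx were lower in the mutant too, whereas the neuron list, given below, overlapped between the groups. All 18 body wall muscle markers, 22 of 22 sperm markers and 15 of 16 adult intestine markers fell, as did 7 of 12 tested cuticle collagen genes. For the pharynx 2 of 5 tested genes fell, a count too small to set apart from all genes. Over all tested genes 29.4% were called lower and 9.01% higher. Among the markers that fell, 6 intestine, 3 muscle, 1 sperm, 1 collagen and 1 pharynx gene reached the filter level in 3 libraries through wildtype alone. The body wall muscle list summed to 199 to 502 CPM in the mutant libraries and 2477 to 8009 CPM in the wildtype libraries. The intestine list summed to 2.05 to 1022 CPM in the mutant and 6204 to 52520.2 CPM in wildtype, the collagen list to 1.22 to 572 CPM in the mutant and 2156 to 19997 CPM in wildtype, the pharynx list to 0.743 to 3.08 CPM in the mutant and 7.24 to 37.5 CPM in wildtype, and the sperm list to 47.1 to 134 CPM in the mutant and 5043 to 9064 CPM in wildtype. Every gene of the marker lists had at least 1 count in each group, so no list was at 0.

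Markers of the labelled stage were present in both groups. The oocyte and maternal list of 18 genes summed to 11198 to 14628 CPM in the mutant libraries and 12921 to 17100.5 CPM in the wildtype libraries. Of its genes 7 were called lower and 3 higher, where 29.4% of all tested genes were called lower and 9.01% higher. The list of 15 early zygotic genes summed to 184 to 313 CPM in the mutant. In wildtype libraries 11, 22 and 30 it summed to 108, 8.39 and 217 CPM, with 1 gene called higher and 0 lower. Of these 15 genes, 10 reached the filter level in at least 3 libraries through the mutant alone, so 0 lower is no support by itself. The neuron list, which marks other cells and not the stage, summed to 200.3 to 346 CPM in the mutant and 123 to 325 CPM in wildtype. These ranges overlapped, and 2 of its 10 tested genes were called lower and 1 higher, near the shares over all tested genes. The filter level was reached in at least 3 libraries through wildtype alone by 1 of these 10, called lower, and through the mutant alone by 1.

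Within the groups, the small heat shock genes that fell differed in their order from library to library. In wildtype, hsp-25, hsp-17 and hsp-43 were highest in library 11, lower in library 22 and lowest in library 30, the order also of the muscle, collagen and pharynx sums. The other 3 that fell, hsp-12.1, hsp-12.2 and hsp-12.3, were highest in library 11 too but lowest in library 22. Neither order was that of the intestine sum, highest in wildtype library 22, or of the sperm sum, at 5043, 7672 and 9064 CPM in wildtype libraries 11, 22 and 30. In the mutant, hsp-25, hsp-17 and hsp-43 were higher in libraries 22 and 29 than in libraries 11 and 30, as were the muscle, pharynx, intestine and collagen sums, the last of these at 572 and 507 CPM in libraries 22 and 29 and 1.22 and 15.6 CPM in libraries 11 and 30, while the sperm sum was highest in library 30, at 134 CPM. The gene hsp-12.1 was also higher in mutant libraries 22 and 29 than in 11 and 30, on 0, 1, 11 and 1 counts, and was highest in library 29. The genes hsp-12.2 and hsp-12.3 did not share that order and were highest in mutant libraries 22 and 29. The gene sip-1 was highest in mutant libraries 22 and 30 and in wildtype library 30. These are descriptions of 4 and 3 libraries, and the part of other cells in the falls was not tested.

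**Figure D5:**
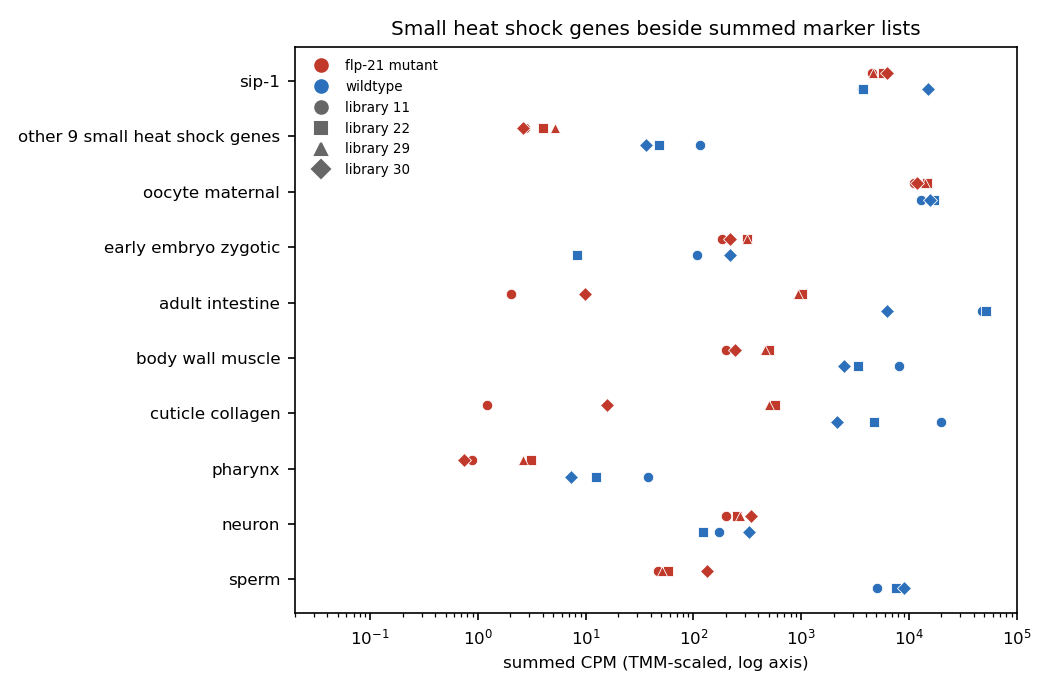
Summed CPM of sip-1, of the other 9 small heat shock genes and of 8 marker lists in each library on a log axis, with the flp-21 mutant above wildtype in each row and the symbol giving the library number. The other 9 genes lie at 2.59 to 5.24 CPM in the mutant and 36.5 to 115.4 CPM in wildtype, a separation also seen for the intestine, body wall muscle, collagen, pharynx and sperm lists, while sip-1, the oocyte, early embryo and neuron lists overlap.

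Among the 7774 tested genes with a mean of at least 5 CPM, those whose log2 CPM over the 7 libraries was most like that of sip-1 were faah-4, F01G4.6, R06B9.5, ptr-21 and hda-10, with Pearson correlations of 0.989 to 0.983. The closest, faah-4, averaged 101 ± 23.7 CPM in mutant embryos and 154 ± 155 CPM in wildtype embryos. For hsp-12.1, the tested member with the largest fold change, the most alike were gly-6, inx-13, cysl-1, WBGene00206419 and W05F2.4, with correlations of 0.989 to 0.968. The libraries share their genotype grouping and their depth, so these correlations are a description of 7 libraries. Each member also stood far highest in a single wildtype library, sip-1 in library 30 at 14891 CPM and hsp-12.1 in library 11 at 15.6 CPM. How far the correlations rest on that library was not tested.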

How the data were processed

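Total RNA was taken up in Trizol and sequenced from TruSeq libraries, per the labels' protocols. The authors deposited raw counts of reads per gene, made with featureCounts 1.6.4 over exons, per the file headers, and the recorded command sets neither strand nor pairs nor multiple mapping. BWA, DESeq2 and build WBcel235 are named in the submitters' processing notes. If BWA made the alignments, reads over exon junctions can go uncounted. The authors also deposited their own comparison, which gives log2 fold changes and p-values, a mean signal in counts divided by size factors, and a test statistic, or score. The score was not used, and the authors' DESeq2 version is not given here.

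Symbols came from the Ensembl release 115 annotation and a gene name table, giving 43693 of 46748 genes a symbol. The hsp-16 copies outside the member list were matched by RefSeq coordinates of the same build, and hsf-2, ssp-9, ssp-11 and vet-4 were not matched. Genotypes were compared in R 4.3.3 by quasi-likelihood (edgeR 4.0.16, robust option) with TMM scaling, filterByExpr and genotype as the only term, with Benjamini-Hochberg adjustment over 13035 genes and a threshold of 0.05. SE is the absolute log2 fold change divided by the square root of F. DESeq2 1.42.0 was an alternative. The fit was tested on simulated data. Correlations used log2 of CPM plus 0.5. A count of 0 was taken to allow 3 counts. Named genes were all 10 members, all other alpha-crystallin genes, the 3 smallest p-values of each other list at a mean of at least 1 CPM, and the 5 genes most alike to 2 members, while skn-1, sir-2.1 and daf-16 were named after their values were seen. Members and lists were chosen with earlier results of these data known. Alternatives covered scaling, tool, count filter, replicate block, libraries left out and removal of ribosomal RNA genes.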

Additional observations from a re-analysis of the deposited data

Results flagged for a closer look

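In the mutant, hsp-12.1 in library 29 lay far from the other 3 mutant libraries: 0.199 CPM, from 11 counts, against 0, 0.0270 and 0.0191 CPM, from 0, 1 and 1 counts. The gap took 0.864 of the group's whole range, above Dixon's 95% critical value for 4 samples. Among the mutant libraries of the 10 genes, hsp-12.1 was the only gene marked in this way, and chance alone marks about 1 in 20. The wildtype libraries were not checked in this way, so the wide spread of sip-1 among them was not screened.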

How the results depend on the processing

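The number of small heat shock genes that fell was 6, with 5 to 6 when 1 library was left out and 1 with the filter of 5 CPM, which tests only hsp-25 and sip-1; the number that rose was 0, with 0 to 1 when 1 library was left out. The log2 fold change of sip-1 ran from -0.65 to 0.63 when 1 library was left out and turned to 0.63 without wildtype library 30. The cause of that turn was not tested. In all alternatives run, the log2 fold changes of hsp-12.2, hsp-12.3, hsp-25 and hsp-43 stayed called wherever they were tested, with largest adjusted p-values of 0.00551, 0.0283, 0.0237 and 0.0460. Those of hsp-12.1 and hsp-17 lost their call with wildtype library 30 alone (adjusted p = 0.0840 and 0.105), and hsp-12.1 also without wildtype library 11 (0.0526). Of all genes, 1175 were called higher and 3829 lower. The higher count was 748 with upper quartile scaling, 1902 with DESeq2, 536 with the filter of 5 CPM, 339 without mutant libraries 22 and 29 and 589 to 2505 when 1 library was left out. The lower count was 1679 with the filter of 5 CPM, 1906 with wildtype library 30 alone and 3058 to 4777 when 1 library was left out. Across the alternatives 0 to 6 other chaperones rose and 3 to 9 fell, 1 to 7 regulators rose and 0 to 1 fell, 3 to 8 DAF-16 targets fell, and 0 to 1 other alpha-crystallin genes rose. The median over tested genes, -0.21 in log2, was 0.01 with library size alone and -0.42 with upper quartile scaling.

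The numbers in the labels did not pair the samples: deviations of libraries 11, 22 and 30 from their group means correlated at -0.149, 0.0933 and 0.492, and mutant libraries 11 and 22 correlated best with wildtype libraries of another number. With the replicate block over these 6 libraries, 6 small heat shock genes fell and 0 rose, and over all genes 1314 rose and 2980.0 fell. Depth limits hsp-12.6, hsp-16.2 and hsp-16.41, which had 0 to 17 counts per library.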
